A study of Rattus norvegicus with 23 samples.

Results

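miR-146a, miR-146b, miR-142, miR-150, miR-155 and miR-223 are the microRNAs (miRNAs) most often measured in inflammation, and 9 of their mature forms were present in the small RNA of rat cauda sperm. They were the rows of the miRNA table that carry these names and had a value above 0 in at least 8 of the 23 libraries. All 9 rows with these names met that condition, out of 425 miRNA rows in the table, of which 407 met it and were tested. Sperm came from the cauda epididymis, the storage end of the duct in which sperm mature, of male Long-Evans rats. The rats had breathed filtered air (n = 7), ozone at 0.4 ppm (n = 8) or ozone at 0.8 ppm (n = 8), with 1 library per rat. Exposures lasted 4 h and were given 5 times, 3 of them in week 1 and 2 in week 2, at chamber averages of 0.401 and 0.798 ppm for ozone. Ozone is an oxidant gas that inflames the airways. A group size of 8 is stated for the study, while the labels assign 7 libraries to air.

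A miRNA is cut from a hairpin precursor, and either arm of the hairpin (5p or 3p) can be loaded into an Argonaute protein, which it guides to messenger RNAs through its seed, bases 2 to 8. miR-142, miR-150 and miR-223 are made mainly by blood cells: miR-142 by nearly all of them, miR-150 by mature lymphocytes and miR-223 by neutrophils and other myeloid cells. miR-155 is induced in activated lymphocytes and macrophages and promotes inflammatory signalling. miR-146a and miR-146b, encoded by separate genes, are induced through NF-kB and damp Toll-like receptor signalling by repressing Irak1 and Traf6. Both are also made outside the blood. Sperm pellets can hold epithelial cells, leukocytes and vesicles of the duct beside the sperm, so miRNAs known from each source were followed here as lists.

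The mature sequences of 8 of the 9 members were found in RefSeq (rat build GRCr8). They are shown because the seed decides which members can share targets. Each is written 5′ to 3′ with the seed in capitals.
miR-146b-5p: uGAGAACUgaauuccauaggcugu
miR-146a-5p: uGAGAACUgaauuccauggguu
miR-142-5p: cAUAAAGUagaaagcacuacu
miR-142-3p: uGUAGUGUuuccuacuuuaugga
miR-155-5p: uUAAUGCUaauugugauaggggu
miR-223-3p: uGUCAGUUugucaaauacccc
miR-223-5p: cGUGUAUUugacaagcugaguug
miR-146b-3p: cCUAGGGAcucaguucuggug

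miR-146a-5p and miR-146b-5p have the same seed, GAGAACU, and the same first 17 bases. Counted from the 5′ end of miR-146a-5p, miR-146b-5p carries G18A and U21C, and it is 24 bases long against 22. No other of the 396 table rows with a sequence has that seed, and none shares the seed of another member. The Mir146b hairpin lies at chr1:255144860-255144947 on the plus strand and Mir146a at chr10:28349996-28350090 on the minus strand. Mir142 lies at chr10:73055104-73055190, Mir155 at chr11:37261114-37261178 and Mir223 at chrX:65151383-65151492, all on the plus strand. All these coordinates are GRCr8, a later build than the rn6 named for the reads. The 8 sequences hold 33.3 to 57.1% G and C with a median of 41.3%, against a median of 45.8% over the 396 rows.

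Libraries held between 213839 and 1286613 miRNA reads, with a median of 628271. Values are read counts divided by a factor for each library (scaled read counts), and 1 read was worth 0.47 to 2.53 units depending on the library. As a check of the tissue, miR-34c-5p, an abundant miRNA of the late male germ line, took 13.3 to 32.4% of the table in every library, and 11 of the 12 listed germ-cell miRNAs were present. Of the erythroid list 2 of 3 were present, of the muscle and stroma list 3 of 5, and of the epithelial list all 7. RNA integrity numbers of 2 to 4 are given for all samples together and none per rat.

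miR-146b-5p was by far the most abundant member. It averaged 16977 ± 9201 scaled read counts (SD, n = 23), ranked between 3rd and 16th of all miRNAs with a median rank of 13, and made up 86.4 to 97% of the members' summed signal. The 9 members together held 1.75 to 6.43% of the table, with a median of 2.4%. These 21- to 24-base RNAs are close in length, but the efficiency of adapter ligation differs between miRNAs, so an order of levels is an order of signal.

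miR-146a-5p, the second member in order, averaged 813.9 ± 218.8 (SD, n = 23). miR-142-5p averaged 324.6 ± 89.91. The order of miR-146b-5p over miR-146a-5p, miR-146a-5p over miR-142-5p, and miR-142-5p over miR-150-5p held in 23 of 23 libraries. miR-150-5p averaged 54.77 ± 16.79 and miR-155-5p 51.55 ± 19.6. Their order was not separated, since miR-150-5p was the higher in 13 of 23 libraries. miR-155-5p exceeded miR-223-3p in all 23 libraries.

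The neutrophil miRNA miR-223-3p averaged 4.905 ± 3.906 and was listed at 0 in 4 libraries. miR-142-3p averaged 3.493 ± 2.018, and miR-223-3p was higher than it in 12 libraries and equal in 5. miR-223-5p averaged 0.9148 ± 1.243, with 0 in 11 libraries. miR-146b-3p averaged 0.5043 ± 0.7734, with 0 in 15 libraries. For these 4 members the whole study holds 132, 99, 23 and 17 reads in that order. A count of 0 allows up to 3 reads, which was 1.41 to 7.6 units depending on the library, and no fold change is given for the lowest 2 members. Each of them had 3 reads or fewer in 22 of 23 libraries and 4 reads in 1, which was air replicate 1 for miR-146b-3p and 0.4 ppm replicate 8 for miR-223-5p.

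How far the members spread between rats of one group was set against what read counting alone would give. miR-146b-5p had a coefficient of variation within groups of 55.9%, against 0.808% from counting. miR-146a-5p varied by 24.2% against 3.69%, and miR-142-5p by 28.2% against 5.84%. For these 3 the spread between libraries was thus far above counting error. miR-150-5p and miR-155-5p varied by 28.9% and 39.7%, against 14.2% and 14.7%. miR-223-3p varied by 80.8% against 47.5%. miR-142-3p varied by 55.9% against 56.3%, so its spread was no larger than counting error.

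**Figure D1:**
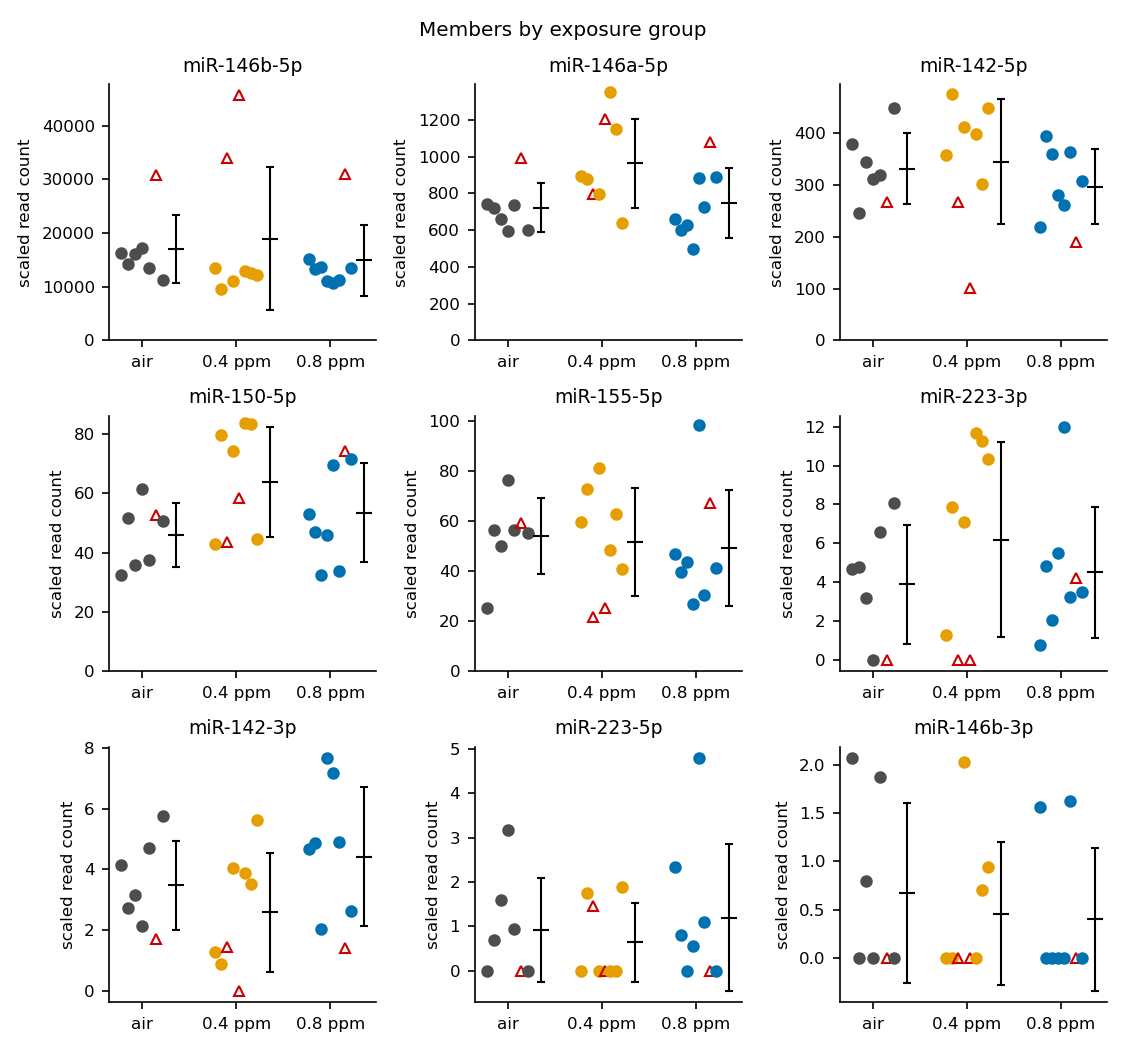
Scaled read count (vertical axis) of each of the 9 members in every library, by exposure group (air n = 7, 0.4 ppm n = 8, 0.8 ppm n = 8); bars give the mean and SD, and red open triangles mark in every panel the 4 libraries that lie above a gap in miR-146b-5p. The groups overlap in each panel, and the triangles in the miR-146b-5p panel sit between 30783 and 45688, above the 9612 to 17203 of the other 19 libraries.

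The values of miR-146b-5p fell into 2 sets. In 19 libraries it lay between 9612 and 17203, with a coefficient of variation within groups of 13.5%. In the other 4 it was 30783 (air replicate 6), 31000 (0.8 ppm replicate 7), 34005 (0.4 ppm replicate 3) and 45688 (0.4 ppm replicate 5). The step between the 2 sets was 1.79-fold, while the next widest step between neighbouring libraries was 1.34-fold. All 3 exposure groups were among the 4 libraries. They held 288857 to 486748 reads, inside the range of the other 19 but each below their median of 660822. They had 316 to 357 miRNAs above 0, against 322 to 405. miR-34c-5p took 13.3 to 20.7% of their tables against 18.5 to 32.4%. The part of these measures in the high values was not tested.

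The leukocyte miRNAs were not alike in these 4 libraries, and were not high as a set. miR-142-5p was 267.6, 190.5, 267 and 101.4 in the order of libraries above, against 218.3 to 475.9 in the other 19, and the value of 101.4 was the lowest of the study. miR-223-3p was listed at 0 in 3 of the 4 libraries and at 4.203 in 0.8 ppm replicate 7. miR-155-5p was 59.28, 67.24, 21.76 and 25.35, against 25.34 to 98.24. miR-146a-5p was 994.2, 1079, 798 and 1204, against 496.4 to 1349 in the other 19. It lay within their range and above their median of 726.7 each time. miR-150-5p was 52.5, 74.24, 43.53 and 58.3, against 32.52 to 83.58 with a median of 50.76. miR-142-3p was 1.694, 1.401, 1.451 and 0, against 0.8748 to 7.663 with a median of 4.06.

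Markers of other cells were not alike in the 4 libraries either. miR-143-3p, a miRNA of smooth muscle and fibroblasts, was 18627, 76738, 20840 and 30483 in the same order, above the 9546 to 16860 of the other 19 libraries. miR-145-5p, made from the same primary transcript, was 18.63, 238.1, 17.41 and 48.16, against 26.25 to 67.09. Both were above that range in 0.8 ppm replicate 7 alone. miR-1-3p, the third measured member of that list, was 8.468, 15.41, 17.41 and 17.74, against 7.775 to 45.68. miR-200b-3p, an epithelial miRNA, was 193.1, 156.9, 130.6 and 172.4, inside the range of 98.63 to 451.4 but below the 19-library median of 213.6. miR-141-3p, also epithelial, was 4344, 3581, 4978 and 3384, above its median of 3365 each time. miR-203a-3p was below its median of 199.9 each time. The epithelial miRNAs miR-200a-3p, miR-200c-3p, miR-429 and miR-205 lay on both sides of their medians. The part of any such cell in the high miR-146b-5p values was not tested, and in bulk RNA fewer cells of a type and less RNA per cell cannot be told apart.

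The comparison of exposure groups asked whether ozone changed these miRNAs in sperm. No member passed the test. In limma fits to log2(value + 1) over all 407 miRNAs, with Benjamini-Hochberg adjusted p below 0.05 as the threshold, 0 of 9 members passed at 0.4 ppm against air, and 0 of all 407 passed (0%). The same counts, 0 of 9 and 0 of 407 (0%), held at 0.8 ppm against air, at 0.8 against 0.4 ppm and for a linear trend with concentration. At an unadjusted p below 0.05 the members still numbered 0 in each, against 5.41% of all miRNAs at 0.4 ppm, 2.21% at 0.8 ppm, 3.69% between the ozone groups and 2.21% for the trend. edgeR and DESeq2, run on the recovered reads, also called 0 of 9 members in each comparison.

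Of the 7 members given a fold change, 3 had a positive log2 fold change at 0.4 ppm with a median of -0.02, against 196 of 407 and -0.02 over all miRNAs. At 0.8 ppm 4 of 7 were positive with a median of 0.02, against 208 of 407 and 0.01. Neither median kept its sign. At 0.4 ppm 5 of 7 were positive on shares of the table (each value over its library's total), against 237 of 407. The median was 0.0933 against 0.0679 over all miRNAs. The same 5 of 7 were reached in edgeR (0.129), in DESeq2 (0.15) and with library weights (0.11), against 214, 230 and 222 of 407. Over all miRNAs the medians of these 3 fits were 0.0367, 0.0602 and 0.0301. With read depth as covariate 4 of 7 were positive (0.0633), against 214 of 407 (0.0176). At 0.8 ppm 2 of 7 were positive in edgeR (-0.0719) and with library weights (-0.0576), and 2 of the 5 members with a mean value of at least 10 (-0.171). Over all miRNAs these were 200 of 407 (-0.00612), 209 of 407 (0.019) and 129 of 235 (0.0186). miR-146a-5p and miR-150-5p had an unadjusted p below 0.05 at 0.4 ppm on shares of the table, in DESeq2 and with library weights. So had 26, 31 and 40 of 407 miRNAs in these 3 settings. Without the 4 libraries high in miR-146b-5p, 5 of 7 were positive at 0.4 ppm with a median of 0.231, against 210 of 407 and 0.0182 over all miRNAs. In that fit 3 members had an unadjusted limma p below 0.05, as had 52 of 407 miRNAs, and 0 of 407 passed the adjusted threshold. Of the 3, miR-146a-5p and miR-150-5p were higher at 0.4 ppm and miR-146b-5p was lower. The 4 libraries were chosen by the values of miR-146b-5p, so its p in that fit is no test.

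miR-146b-5p had a lowest, median and highest value of 11302, 16074 and 30783 in air. At 0.4 ppm these were 9612, 12739 and 45688, and at 0.8 ppm 10668, 13334 and 31000. The ranges overlapped almost completely, and the 0.4 ppm group had the lowest median but the highest mean (17071 ± 6368, 18943 ± 13328 and 14928 ± 6670 in the 3 groups, SD). The log2 fold change was -0.02 at 0.4 ppm (95% interval -0.59 to 0.55, limma adjusted p = 0.988) and -0.21 at 0.8 ppm (-0.78 to 0.35, adjusted p = 0.993). The sign at 0.4 ppm turned with the scaling: it was 0.09 on shares of the table and 0.13 in edgeR.

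miR-146a-5p was the member nearest to a difference. It ran from 593.9 to 994.2 in air with a median of 721.3, from 636.3 to 1349 at 0.4 ppm with a median of 886.1, and from 496.4 to 1079 at 0.8 ppm with a median of 693.6. The 0.4 ppm group thus reached higher, and all 3 ranges overlapped. The log2 fold change was 0.39 at 0.4 ppm (SE 0.20, 95% interval -0.01 to 0.80), with an unadjusted p of 0.0553 and an adjusted p of 0.785 in limma. At 0.8 ppm it was 0.02 (-0.38 to 0.43), and the sign was negative in edgeR (-0.00495) and with library weights (-0.06). Between 0.8 and 0.4 ppm it was -0.37 (-0.76 to 0.02, limma unadjusted p = 0.0621, adjusted 0.729), and negative in all 12 alternatives. There its unadjusted p was below 0.05 on shares of the table, in edgeR, in DESeq2 and with library weights. So were those of 19, 18, 25 and 89 of 407 miRNAs in these settings.

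miR-150-5p, the lymphocyte miRNA, resembled miR-146a-5p in its group values. In air it ran from 32.58 to 61.51 with a median of 50.76. At 0.4 ppm it ran from 43.02 to 83.58 with a median of 66.2, and at 0.8 ppm from 32.52 to 74.24 with a median of 49.98. Its log2 fold changes were 0.44 at 0.4 ppm (-0.04 to 0.92, limma adjusted p = 0.785) and 0.18 at 0.8 ppm (-0.30 to 0.66). Of the epithelial list, 6 of 7 miRNAs also had a positive log2 fold change at 0.4 ppm, against 196 of 407 miRNAs. The epithelial median was 0.45, with 0 of 7 past the adjusted threshold, as were 0 of 407. An unadjusted limma p below 0.05 was reached by 3 of the 7, against 22 of 407 (5.41%). The part of epithelial RNA in the miR-146a-5p and miR-150-5p values was not tested.

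miR-155-5p, the miRNA of activated immune cells, was the member with the most nearly equal means: 54.15 ± 15.16 in air, 51.58 ± 21.41 at 0.4 ppm and 49.24 ± 23.23 at 0.8 ppm (SD). Its log2 fold changes were -0.14 (-0.73 to 0.46) and -0.19 (-0.78 to 0.40). The highest value of the study, 98.24, was in a 0.8 ppm library. The negative sign at 0.4 ppm became 0.02 with library weights and 0.22 without the 4 libraries high in miR-146b-5p.

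miR-142-5p, the most abundant member outside the miR-146 family, averaged 331.6 ± 68.36 in air, 345.7 ± 121.2 at 0.4 ppm and 297.4 ± 72.91 at 0.8 ppm (SD). Its log2 fold changes were -0.04 (-0.55 to 0.48) and -0.17 (-0.68 to 0.34). The lowest library, 0.4 ppm replicate 5, weighed on the first of these, which was 0.20 without it. Signs at 0.4 ppm were also positive on shares of the table (0.08), in edgeR (0.04) and in DESeq2 (0.07).

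miR-223-3p averaged 3.89 ± 3.077 in air, 6.19 ± 5.037 at 0.4 ppm and 4.51 ± 3.372 at 0.8 ppm (SD). With 0 to 22 reads per library, its intervals were the widest of the 7 members given a fold change: 0.38 (-0.81 to 1.58) at 0.4 ppm and 0.37 (-0.83 to 1.56) at 0.8 ppm. The second sign was negative in edgeR (-0.07) and with library weights (-0.04). miR-142-3p averaged 3.471 ± 1.463, 2.588 ± 1.954 and 4.416 ± 2.29 in the 3 groups. Its log2 fold change of 0.70 between 0.8 and 0.4 ppm (-0.10 to 1.49, limma adjusted p = 0.729) rests on 0 to 14 reads per library.

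**Figure D2:**
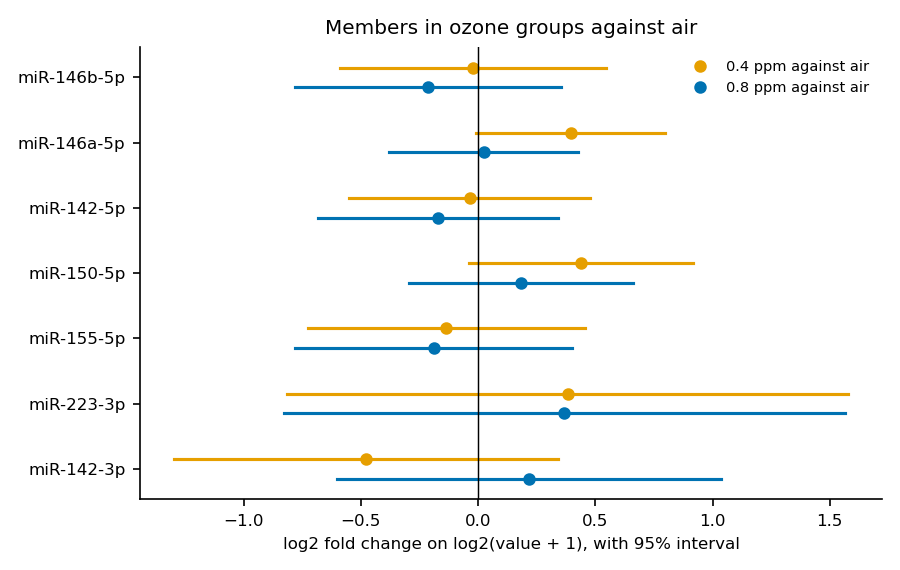
Log2 fold change of each member with a fold change, on the log2(value + 1) scale (horizontal axis), at 0.4 ppm (orange) and 0.8 ppm (blue) against the same air libraries, with 95% intervals from limma as lines. All 14 intervals cross 0, and those of miR-223-3p and miR-142-3p are the widest.

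The balance between hairpin arms was far to one side for 2 of the 3 hairpins with both arms in the table. The 3p arm of miR-142 took 99 of 8769 reads, or 1.13% (Wilson 95% interval 0.928 to 1.37%). The 3p arm of miR-146b took 17 of 387986 reads, or 0.00438% (0.00274 to 0.00702%). For miR-223 the 5p arm, the minor one, had 23 reads against 132, or 14.8% (10.1 to 21.3%). In blood cells both arms of miR-142 are known to be abundant. These shares pool all 23 libraries, their intervals cover counting error only, and ligation can differ between arms.

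Of the pooled miR-146 5p reads, miR-146a-5p took 19592 of 407561, or 4.81% (4.74 to 4.87%). The ratio of miR-146b-5p to miR-146a-5p ran from 9.57 to 42.6 between libraries. The log2 ratio averaged 4.51 ± 0.301 over the air libraries (SD, n = 7). It averaged 4.1 ± 0.822 over the 0.4 ppm libraries (n = 8) and 4.28 ± 0.409 over those at 0.8 ppm (n = 8). The difference from air was -0.415 at 0.4 ppm (exact permutation p = 0.23) and -0.238 at 0.8 ppm (exact permutation p = 0.227), two-sided. Of 12 such comparisons, 4 ratios in 3 pairs of groups, 0 passed after adjustment. With all libraries kept, the smallest exact permutation p was 0.0298 (adjusted 0.358), for miR-142-5p over miR-142-3p. That ratio was lower by 0.831 on the log2 scale at 0.8 than at 0.4 ppm. With 8 in place of 1 added to both values, that difference was -0.365 (exact permutation p = 0.167). Without the 4 libraries high in miR-146b-5p, the difference of miR-146b-5p over miR-146a-5p from air was -0.752 at 0.4 ppm. Those libraries were chosen by miR-146b-5p, so no p is given for it.

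Whether miR-146b-5p follows the leukocyte, the epithelial or the germ-cell miRNAs was asked across libraries. The 29 marker miRNAs measured were 6 leukocyte ones (the members other than both miR-146b arms and miR-223-5p), 7 epithelial ones of the miR-200 family, miR-205 and miR-203a, 11 germ-cell ones of the miR-34 and miR-449 families and the X-linked cluster, 3 of muscle and stroma and 2 of red cells. Because the 4 high libraries form a cluster of their own, correlations are given over the other 19 libraries. They are Pearson's r of log2(value + 1) with permutation p-values adjusted over the 29 markers. The 19 were chosen by the values of miR-146b-5p after these were seen, so their p-values describe those libraries and are no planned test. The plan was all 23 libraries, where 0 of 7 epithelial and 3 of 6 leukocyte markers passed on the deposited scale. Each p is from 100000 random orders, two-sided.

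No leukocyte miRNA had a positive r with miR-146b-5p on the deposited scale. It was negative for 6 of 6, with a median of -0.268, where 52% of all 406 other miRNAs had a negative r and their median was -0.0141. It was -0.337 with miR-142-5p (rho -0.339, adjusted permutation p = 0.353) and -0.369 with miR-150-5p (rho -0.388, adjusted p = 0.353). It was -0.2 with miR-155-5p (rho -0.17) and -0.178 with miR-142-3p (rho -0.402). With its paralog miR-146a-5p it was -0.164 (rho -0.182, adjusted p = 0.692).

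The neutrophil miRNA miR-223-3p was the leukocyte marker that passed, with an r of -0.64 (permutation p = 0.00285, adjusted 0.0275) and a rho of -0.705 (adjusted 0.0164). It was -0.519 without the 2 libraries farthest from the median of miR-146b-5p, and -0.643 with group means subtracted. Its call was kept in 14 of 19 fits that left out 1 library, and was lost without air replicate 3 or 4, 0.4 ppm replicate 2, or 0.8 ppm replicate 1 or 5. With 0 to 22 reads per library this miRNA is measured coarsely.

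The epithelial miRNAs ran against miR-146b-5p on the deposited scale. All 7 had a negative r, with a median of -0.568. miR-200b-3p had the lowest, -0.812 (permutation p = 2e-05, adjusted 0.00058), with a rho of -0.802. It was -0.7 without the 2 farthest libraries and -0.72 with group means subtracted, and was kept in 19 of 19 fits that left out 1 library. miR-429, from the same hairpin cluster, had an r of -0.655 (adjusted permutation p = 0.0275, rho -0.667) and kept its call in 15 of 19 such fits. It was lost with group means subtracted (-0.457, adjusted 0.239), and without air replicate 3 or 4, 0.4 ppm replicate 2 or 0.8 ppm replicate 5.

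miR-200c-3p had an r of -0.586 (adjusted permutation p = 0.0471), but its rho of -0.495 did not pass (adjusted 0.193) and its call was kept in 6 of 19 fits that left out 1 library. miR-205 reached -0.568 (adjusted p = 0.0578). The 2 most abundant epithelial miRNAs, miR-141-3p and miR-200a-3p, had r of -0.363 and -0.432 and did not pass. miR-203a-3p, a miRNA of stratified epithelium, was at -0.0204. The list was thus not uniform.

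With the germ-cell miRNAs r was positive for 8 of 11, with a median of 0.133 and 0 past the threshold. miR-449a-5p had the highest, 0.465 (adjusted permutation p = 0.214), and miR-34c-5p had 0.347 (adjusted 0.353). miR-34b-3p had 0.182, and miR-871-3p had the lowest at -0.448. Of muscle and stroma, miR-143-3p had 0.124, miR-1-3p 0.0229 and miR-145-5p -0.241. The red-cell miRNAs miR-451-5p and miR-144-3p had -0.272 and -0.344. None of these 5 passed.

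The median r changed sign with the scale for 2 of the 5 lists, the leukocyte and the germ-cell one. With each value taken as a share of its library's table total, the leukocyte list was positive for 3 of 6 with a median of 0.0337, and miR-146a-5p reached 0.337. The epithelial list was positive for 2 of 7 with a median of -0.153, and miR-200b-3p, at -0.449, no longer passed (adjusted permutation p = 0.404). The other 3 calls were lost as well: r was -0.369 for miR-223-3p (adjusted permutation p = 0.404), -0.226 for miR-429 (adjusted 0.638) and -0.153 for miR-200c-3p (adjusted 0.815). The germ-cell list turned to 1 of 11 positive with a median of -0.321. miR-743b-3p, a germ-cell miRNA of the X-linked cluster, was the marker that passed on this scale, with an r of -0.751 (adjusted permutation p = 0.00783). It had -0.0365 on the deposited scale. On this scale miR-34c-5p alone is 18.5 to 32.4% of the divisor in these 19 libraries. Over the 19 libraries no list had a marker that passed with a positive r on either scale.

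With the 4 high libraries included, 8 of the 29 markers passed on the deposited scale, with 0 of the 7 epithelial ones among them. The 2 with a positive r were miR-881-3p, a germ-cell miRNA of the X-linked cluster, and miR-143-3p. The 6 with a negative r were miR-142-5p, miR-142-3p and miR-223-3p of the leukocyte list, the germ-cell miRNAs miR-34b-5p and miR-743a-3p, and miR-144-3p of red cells. These 8 were among the 13 that passed on shares of the table, each with the same sign there. No pooled r is given, because the 4 libraries stand apart, and 0 passed without the 2 libraries farthest from the median.

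**Figure D3:**
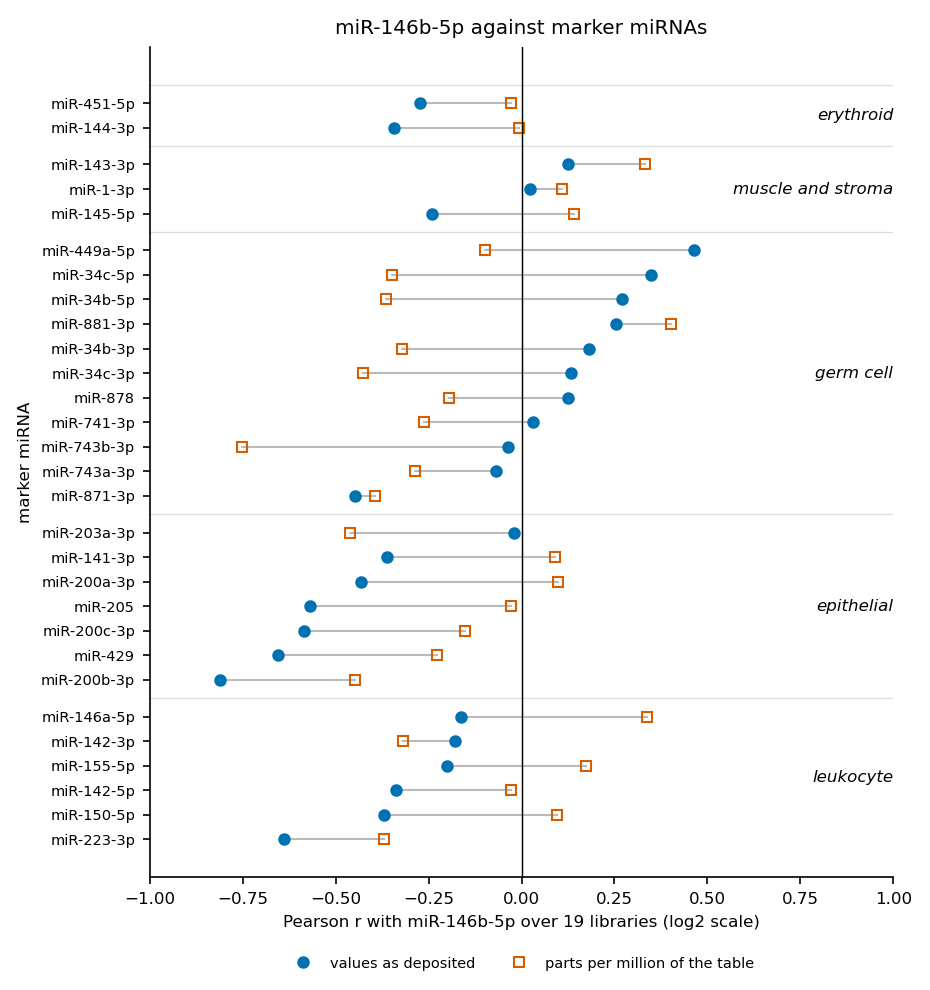
Pearson r of each of the 29 marker miRNAs with miR-146b-5p over 19 libraries (horizontal axis), on the values as deposited (filled circles) and on shares of the table (open squares), by list. Epithelial and leukocyte circles lie left of 0, most germ-cell markers cross from right to left between the scales, and miR-200b-3p has the lowest circle at -0.812.

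Dividing both by the library's factor cancels in a ratio, apart from the 1 added to each value, which weighs on low markers. The SD of the log2 ratio of a marker to miR-146b-5p was therefore taken over the 19 libraries, where a small value means that the 2 keep a steady ratio. Its median was 0.388 for the germ-cell list, 0.474 for muscle and stroma, 0.593 for the leukocyte list, 0.775 for the epithelial list and 1.03 for the red-cell miRNAs, against 0.647 over all other miRNAs. Without the added 1, over markers above 0 in all 19 libraries, the medians were 0.389, 0.482, 0.594 (5 of 6 markers), 0.777 and 1.04 in the same order, against 0.559 over 268 of the 406 other miRNAs. By this measure the germ-cell miRNAs had the lowest median of the 5 lists over the 19 libraries. The measure also takes in the marker's own spread, so a marker that varies little scores low without following miR-146b-5p. The germ-cell miR-743a-3p stood at 0.347 with an r of -0.068, and the epithelial miR-203a-3p at 0.401 with an r of -0.0204. Low reads widen it, as for miR-223-3p at 1.17, so lists of unequal abundance are not fully comparable. miR-142-5p stood at 0.436 and miR-34c-5p at 0.343. Over all 23 libraries the SDs ran from 0.418 to 1.1 in the germ-cell list and from 0.704 to 1.03 in the epithelial list, so these overlapped.

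The miRNAs most like miR-146b-5p were in none of these lists. By r over all 23 libraries, the rule used to name them, they were let-7a-5p, miR-3596a, miR-184, miR-676 and miR-191a-5p. The first 2 are 1 measurement: their reads were equal in 23 of 23 libraries, and RefSeq places them on opposite strands of chr8:50805219-50805240, as the sequences show.
let-7a-5p: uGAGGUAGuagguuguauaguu
miR-3596a: aACUAUACaaccuacuaccuca

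let-7a-5p was 20439, 18785, 23011 and 28822 in the 4 libraries high in miR-146b-5p, in the order above, and 7961 to 11516 in the other 19. miR-184 was 1492, 1660, 1474 and 1929, against 274.1 to 657. miR-676, an X-linked miRNA, was 3480, 2880, 3344 and 4636, against 1155 to 2362. miR-191a-5p was 22836, 22347, 25879 and 33025, against 13356 to 22466. The first 3 miRNAs were thus above all other libraries in each of the 4, and miR-191a-5p in 3 of them.

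Within the 19 libraries the likeness held for some of them. miR-191a-5p had an r of 0.728 with miR-146b-5p (permutation p = 0.00048, adjusted over all 406 miRNAs 0.0497) and of 0.655 on shares of the table. miR-676 had 0.702 and 0.592, miR-184 0.536 and 0.65, and let-7a-5p 0.446 and 0.515. Their log2 ratios to miR-146b-5p had SDs of 0.157, 0.191, 0.279 and 0.212. Over all 406 miRNAs, 44 (10.8%) had an unadjusted permutation p below 0.05 and 4 (0.985%) passed the adjusted threshold: miR-200b-3p, miR-200b-5p (-0.728), miR-547-3p (-0.723) and miR-191a-5p. By rho, 1 of these 4 passed over all miRNAs, miR-200b-3p (adjusted 0.0244). These miRNAs were chosen for their r, so the values describe them.

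**Figure D4:**
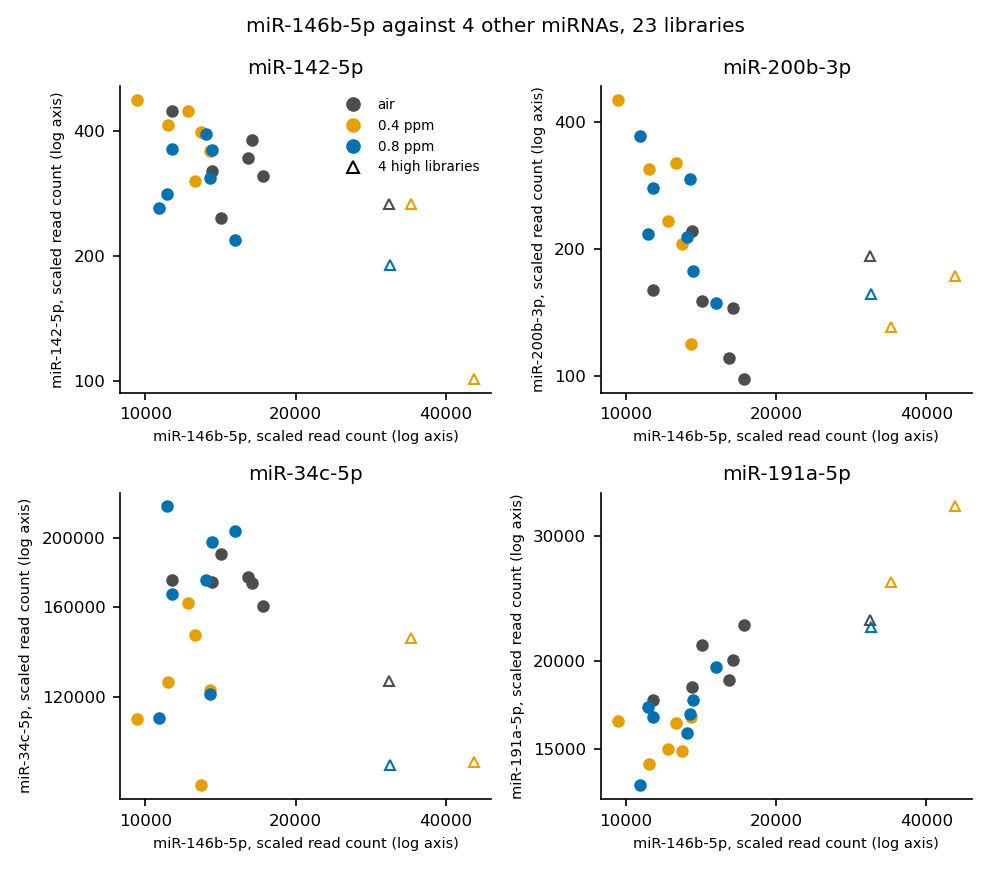
Scaled read count of miR-142-5p, miR-200b-3p, miR-34c-5p and miR-191a-5p (vertical log axes) against miR-146b-5p (horizontal log axis) in the 23 libraries, coloured by exposure group, with triangles for the 4 libraries high in miR-146b-5p. miR-200b-3p falls from left to right among the circles, miR-191a-5p rises over circles and triangles, and miR-142-5p is lowest, at 101.4, in the library with the highest miR-146b-5p.

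The leukocyte members were compared with each other in the same 19 libraries, 10 pairs among the 5 with at least 100 reads in all. miR-150-5p and miR-155-5p rose and fell together, with an r of 0.597 (permutation p = 0.00701, adjusted over the 10 pairs 0.035) and of 0.715 on shares of the table (adjusted 0.00305). The rho of 0.554 did not pass (adjusted 0.158), and r was 0.649 without the 2 farthest libraries. miR-146a-5p and miR-150-5p had an r of 0.597 (adjusted permutation p = 0.035) and of 0.748 on shares of the table (adjusted 0.0018). On the deposited scale r was 0.376 without the 2 libraries farthest from the median of miR-146a-5p (permutation p = 0.138). Leaving these out narrows the range of miR-146a-5p. With 1 library left out at a time, r stayed between 0.512 and 0.65. The rho of 0.447 did not pass (adjusted 0.185).

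The other 8 pairs did not pass on the deposited scale. miR-142-5p had r of 0.0763 with miR-146a-5p, -0.0323 with miR-150-5p and -0.055 with miR-155-5p. The last 2 signs turned on shares of the table, to 0.343 and 0.283. miR-142-5p and miR-223-3p had 0.336 (adjusted permutation p = 0.265). On shares of the table r was positive for all 10 pairs, from 0.206 to 0.748. There 3 pairs passed, the third being miR-146a-5p with miR-155-5p (0.563, adjusted permutation p = 0.043).

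miR-146a-5p had a positive r with most epithelial miRNAs. Over the 19 libraries its median r with them was 0.529, and 0.699 on shares of the table, with 6 of 7 positive on both scales. With all 406 other miRNAs its median r was -0.0406 and 0.093. With the germ-cell list it was -0.65 and -0.438, with 2 of 11 positive on both. miR-150-5p had a median of 0.494 with the epithelial list and -0.357 with the germ-cell list. miR-142-5p had 0.186 and -0.185. With the 2 red-cell miRNAs the medians were 0.341 for miR-146a-5p, 0.548 for miR-150-5p and 0.373 for miR-142-5p. In the order epithelial, germ-cell and red-cell list, miR-223-3p had medians of 0.508, -0.232 and 0.538. miR-155-5p had 0.189, -0.499 and 0.363 in that order. miR-142-3p differed, with 0.02, 0.27 and -0.0494. These medians are given as descriptions without a test, and the points share their libraries and scaling.

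The miRNAs most like miR-142-5p, by r over the 23 libraries, were miR-547-3p (0.817), miR-147 (0.793), miR-101b-3p (0.777), let-7a-1-3p (0.776) and miR-3585-5p (0.762). Over the 19 libraries these were 0.385, 0.321, 0.408, 0.508 and 0.587. Each r was thus lower without the 4 libraries high in miR-146b-5p. The values describe miRNAs chosen for their r.

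A further list of 16 miRNAs with known roles in immune signalling was measured in full. In each of the 4 comparisons 0 of 16 passed, as did 0 of all 407. At 0.4 ppm 10 of 16 had a positive log2 fold change with a median of 0.11, against 196 of 407 and -0.02 over all miRNAs. At 0.8 ppm these were 9 of 16 with a median of 0.02, against 208 of 407 and 0.01. miR-21-5p, induced in many inflamed tissues, averaged 5948 ± 1040 in air, 5690 ± 1457 at 0.4 ppm and 6194 ± 2079 at 0.8 ppm (SD). miR-181a-5p, which tunes lymphocyte receptor signalling, averaged 1472 ± 377.2, 1615 ± 401.4 and 1406 ± 671.2. miR-221-3p averaged 599.2 ± 79.63, 738.1 ± 187.6 and 741.8 ± 167.1, with log2 fold changes of 0.27 (-0.12 to 0.66) and 0.29 (-0.10 to 0.67). The groups overlapped for all 3. An unadjusted limma p below 0.05 was reached by 0 of 16 at 0.4 ppm, and by 1 of 16 at 0.8 ppm against 9 of 407 miRNAs. That 1 was miR-125b-5p, with a log2 fold change of 0.59 (0.07 to 1.12, limma unadjusted p = 0.027, adjusted 0.993).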

How the data were processed

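Small RNA below 200 nucleotides was isolated from frozen sperm with the mirVana procedure, made into CleanTag libraries and sequenced on a NextSeq instrument for 75 cycles, per the labels' protocols. Partek, Bowtie 1.0.0 and the build rn6 are listed, per the submitters' processing notes, with the assignment of reads to miRNAs not given in the sources used here. As deposited, miRNA values are a scaled read signal: in every library the median log2 ratio to the geometric mean was 0.014, as median-ratio scaling leaves it. Of 249 to 298 low values per library, 100% were whole multiples of 1 read within 0.1 of a read, so whole reads were recovered. The deposited tRNA, piRNA and transcript tables were not used here. No 2 libraries were identical, and the libraries are of separate rats.

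miRNAs above 0 in at least 8 libraries were fitted with limma 3.58.1 (R 4.3.3, trend and robust) on log2(value + 1), all 3 groups in 1 model, adjusted over 407 miRNAs and two-sided; such fold changes understate low miRNAs. The steps were tested on simulated data. Ratios had exact permutation tests and correlations 100000 random orders. Alternatives included edgeR 4.0.16 and DESeq2 1.42.0 on recovered reads. Named miRNAs were all members, the 5 most like miR-146b-5p and miR-142-5p, the 3 most abundant of each list, and the highest and lowest r per list; others, such as miR-743b-3p, were named after their values were seen. Members and lists were chosen with earlier results of these data known, and the 19-library correlations, the pairs of members, the fits without 4 libraries and the block on label numbers were added after seeing the values. Sequences are from RefSeq GRCr8; miR-150-5p was not matched.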

Additional observations from a re-analysis of the deposited data

Results flagged for a closer look

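Each of the 9 members was examined in each of the 3 groups for a library far from the others. The measure was the gap to the nearest library over the group's range, and 5 of 27 were past Dixon's limit. A rate of 5% would give about 1.4, for independent and normally distributed values. The members share their libraries and some hold few reads, so that number is a rough guide. miR-146b-5p was 30783 in air replicate 6 (gap 0.697 of the range) and 31000 in 0.8 ppm replicate 7 (0.782). At 0.4 ppm, where 2 libraries were high, neither passed. miR-146a-5p was 994.2 in the same air replicate 6 (0.626). miR-223-3p was 11.98 in 0.8 ppm replicate 5 (0.581), which is 5 reads. miR-146b-3p was 2.03 in 0.4 ppm replicate 4 (0.537), which is 2 reads.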

How the results depend on the processing

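In all 4 exposure comparisons 0 members were called under each alternative and with each rat left out; library weights called 2, 3, 0 and 3 of all miRNAs (in the order 0.4 ppm, 0.8 ppm, 0.8 against 0.4 ppm, trend), no member among them. Ratio differences past the threshold stayed at 0 in each alternative run. The count of the 29 markers correlated with miR-146b-5p over 23 libraries was 8, and moved to 13 on shares of the table, to 0 without the 2 farthest libraries and to 4 without the 4 high ones. Over those 19 libraries it was 1 on shares of the table, 4 with a pseudocount of 8 and 3 with group means subtracted. Leaving out 1 rat gave 4 to 11, with 4 without 0.4 ppm replicate 5.

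Signs that turned, with the cause not tested, were these. At 0.4 ppm against air, miR-142-5p (-0.04) was 0.0767 on shares of the table, 0.0367 in edgeR, 0.0658 in DESeq2, 0.11 with library weights, 0.0633 with read depth as covariate and 0.231 without the 4 libraries; leaving out 1 rat gave -0.119 to 0.198. miR-146b-5p (-0.02) was 0.0933 on shares of the table, 0.129 in edgeR and 0.15 in DESeq2, and -0.236 to 0.133 with 1 rat out. miR-155-5p (-0.14) was 0.0208 with weights and 0.222 without the 4 libraries, and -0.303 to 0.0196 with 1 rat out. At 0.8 ppm, miR-146a-5p (0.02) was -0.00495 in edgeR and -0.0597 with weights, and -0.0579 to 0.104 with 1 rat out; miR-223-3p (0.37) was -0.0719 and -0.0391. Between the ozone groups miR-146b-5p (-0.19) was 0.0754 without the 4 libraries, and -0.356 to 0.0223 with 1 rat out. Over 19 libraries on shares of the table, r with miR-146b-5p turned to 0.0957 for miR-150-5p, 0.173 for miR-155-5p, 0.337 for miR-146a-5p (0.116 with group means subtracted), 0.0969 for miR-200a-3p, 0.0902 for miR-141-3p, -0.321 for miR-34b-3p, -0.348 for miR-34c-5p, -0.0974 for miR-449a-5p and 0.142 for miR-145-5p, and r of miR-142-5p to 0.343 with miR-150-5p and 0.283 with miR-155-5p. Labels end in S numbers 1 to 12, of which 11 are each held by 2 libraries, 9 such pairs lying across groups; what the number stands for is not given. With it as a replicate block, chosen after seeing the data, 0 members were called in each comparison, and signs turned for miR-146b-5p (0.333 at 0.4 ppm, 0.411 at 0.8 ppm, 0.0782 between the ozone groups), miR-223-3p (-0.201 and -0.891 at 0.4 and 0.8 ppm) and miR-142-3p (-0.267 at 0.8 ppm), with medians over the 7 members with a fold change of -0.201 at 0.4 and -0.267 at 0.8 ppm. Deviations from group means correlated at -0.173 to 0.281 in the 9 pairs, 2 of them over 0.1, and 1 of 23 libraries was closest to one of its own number. Depth limits miR-223-3p, miR-142-3p, miR-223-5p and miR-146b-3p, with 132, 99, 23 and 17 reads in all.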
